A study of Mus musculus with 9 samples.

Results

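Imprinted genes are expressed mainly from 1 parental copy. The 34 imprinted genes described here were taken from a list of 20 genes known to be paternally expressed, 13 maternally expressed and *Gnas*, whose parental bias depends on the isoform. Of these, 32 could be read in the whole uterus at gestation day (GD) 3.5, among 18193 genes in all: 19 paternally expressed genes, 12 maternally expressed genes and *Gnas*. Each gene was read at the probe set annotated to it alone that had the highest mean over the arrays. *Rtl1* had no probe set, and *H19* had 1 that it shared with another gene, so neither was measured. *Snrpn* had 6 probe sets shared with another gene and was read at the 1 of its own, which lay just above the median of all values.

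The samples were 9 arrays, 3 for each of 3 genotypes. The double knockout, labelled *Mig-6* d/d *Erbb2* d/d, carried *Pgr* cre/+ and floxed alleles of both *Mig-6* and *Erbb2*. The single knockout, labelled *Mig-6* d/d, carried *Pgr* cre/+ and floxed alleles of *Mig-6* alone. Control mice were listed without Cre and with floxed *Mig-6*, some of them with floxed *Erbb2* too (which control arrays these were was not given). Deletion followed the progesterone receptor gene, which is active in the epithelium, stroma and muscle of the uterus, so it was not confined to 1 cell type. All females were of a mixed C57BL/6 and 129P2/OlaHsd background and had been mated to C57BL/6 males. The methods gave an age of 8 to 12 weeks, whereas the sample descriptions gave 2 weeks. Each genotype's RNA came from a pool of several mice. The sources do not state whether its 3 arrays were separate pools, so the p-values measure the spread between arrays, which may be technical. In whole tissue, fewer cells of a type and less RNA per cell cannot be told apart, and the arrays do not separate the parental copies.

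An imprint is a methylation mark set in the germ line, and it keeps 1 parental copy of a gene silent after fertilization. Imprinted genes lie in clusters that share control regions, and many of them regulate growth: *Igf2* promotes it, while *Igf2r*, *Grb10* and *Cdkn1c* restrain it. In the mouse, several act in the placenta and embryo, and a part of them is also expressed in adult tissues such as the uterus.

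The labels were checked on the deleted genes. *Errfi1*, the gene symbol of *Mig-6*, had intensities of 76.1, 29.8 and 40.3 in double knockout uteri, 15.1, 15.96 and 254.6 in single knockout uteri, and 454.0, 564.5 and 286.0 in control uteri. The array labelled single knockout replicate 3 was thus close to the lowest control array, so the main calls and counts that rest on it are also given without it (for counts and lists, a choice made after seeing the data). *Erbb2* had intensities of 18.3, 9.88 and 18.45 in double knockout uteri and 46.55, 39.5 and 44.5 in single knockout uteri (log2 fold change -1.54, limma adjusted p = 0.00649). In control uteri it had 29.4, 36.7 and 45.7. Against control, the log2 fold change of *Erbb2* was -1.30 in double knockout uteri (limma adjusted p = 0.0649, not called). In single knockout uteri it was 0.24, and the arrays overlapped. Median intensities of the 9 arrays lay between 7.87 and 8.24.

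The promoters of 4 imprinted genes are given here: *Ndn*, *Igf2* and *Meg3*, which were called in a comparison described below, and *Peg3*, which was not. CG dinucleotides, the main sites of DNA methylation, are in capitals. The windows were set by transcription starts, not by the regions that carry the imprints. Each window holds 250 bases before and 50 bases after an annotated transcription start, 5′ to 3′ on the gene's strand, from RefSeq (GRCm38.p6). *Ndn* lies at chr7:62348027-62348326 (+ strand), *Igf2* at chr7:142658755-142659054 (- strand), *Meg3* at chr12:109540746-109541045 (+ strand) and *Peg3* at chr7:6730370-6730669 (- strand). For *Igf2*, with 4 annotated windows, and *Meg3*, with 2, the window with the most CG dinucleotides was taken.
Ndn: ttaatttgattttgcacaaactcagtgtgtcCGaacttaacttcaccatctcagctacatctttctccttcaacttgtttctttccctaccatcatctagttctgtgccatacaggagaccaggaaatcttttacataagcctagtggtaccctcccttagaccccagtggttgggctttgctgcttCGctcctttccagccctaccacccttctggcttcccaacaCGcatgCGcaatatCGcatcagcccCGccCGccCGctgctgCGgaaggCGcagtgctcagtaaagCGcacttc
Igf2: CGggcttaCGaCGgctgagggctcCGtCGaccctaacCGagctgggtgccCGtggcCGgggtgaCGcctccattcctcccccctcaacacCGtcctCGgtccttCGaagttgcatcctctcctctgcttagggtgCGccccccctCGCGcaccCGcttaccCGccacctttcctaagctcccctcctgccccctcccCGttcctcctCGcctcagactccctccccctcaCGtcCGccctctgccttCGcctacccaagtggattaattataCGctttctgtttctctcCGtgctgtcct
Meg3: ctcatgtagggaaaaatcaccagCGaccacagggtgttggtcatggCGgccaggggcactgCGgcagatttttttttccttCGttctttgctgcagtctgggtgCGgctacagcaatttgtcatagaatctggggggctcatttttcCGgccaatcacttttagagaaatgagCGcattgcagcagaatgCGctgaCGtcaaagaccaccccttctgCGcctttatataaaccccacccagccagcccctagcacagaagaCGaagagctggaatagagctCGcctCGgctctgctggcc
Peg3: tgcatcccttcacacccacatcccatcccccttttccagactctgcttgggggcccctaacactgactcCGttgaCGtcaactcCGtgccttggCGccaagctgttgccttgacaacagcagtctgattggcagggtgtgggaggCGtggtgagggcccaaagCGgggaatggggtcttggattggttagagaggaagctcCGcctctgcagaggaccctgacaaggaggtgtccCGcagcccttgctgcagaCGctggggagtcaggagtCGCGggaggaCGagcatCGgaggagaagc

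The windows held 11 CG dinucleotides at *Ndn*, 24 at *Igf2*, 13 at *Meg3* and 13 at *Peg3*. The median was 15 over the 39 windows of the 25 imprinted genes that could be matched, against 7 over all 32851 windows. TGCCGC, the motif bound by the imprint-keeping zinc-finger protein ZFP57 when its CG is methylated, was searched on both strands and occurred in 11 of the 39 windows of imprinted genes, against 11.6% of all windows. TGCCGC itself contains a CG, and these shares were not adjusted for the higher CG count of the imprinted genes' windows. Of the printed windows, that of *Meg3* held 1 match. GGGGCCCC, a motif of the zinc-finger factor PLAGL1, which is itself a product of an imprinted gene, occurred in 3 of the 39 windows and in 1.08% of all windows. Those 3 belonged to *Peg3*, *Usp29* and *Rasgrf1*, and the *Peg3* and *Usp29* windows overlap by 263 bases, so they share the match. Methylation was not measured in these uteri, and a match is only a run of letters.

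*Ndn* and *Igf2* fell in single knockout uteri, and none of the 32 imprinted genes rose. In double knockout uteri, *Ndn* and *Meg3* rose relative to single knockout, and none fell. Between double knockout and control uteri, none was called in either direction. Calls required more than a 1.5-fold change and a limma p under 0.05 after Benjamini-Hochberg adjustment over all 45037 probe sets. Over all genes, 1.81% were called lower and 2.55% higher in single knockout than in control uteri, 3.73% higher and 3.76% lower in double knockout than in single knockout uteri, and 0.214% higher and 0.198% lower in double knockout than in control uteri. At 32 genes, 2 calls are a small number beside these shares, and nothing particular to imprinted genes was read from them.

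Most differences were below the threshold and are described here by their direction. In single knockout against control uteri, 23 of the 32 genes were lower and 9 were higher, with a median log2 fold change of -0.19, whereas 55.2% of all genes were lower and their median was -0.03. All 3 single knockout arrays lay below all 3 control arrays for 8 imprinted genes (25%), beside 14.1% of all genes, and above them for 0, beside 11.6%. In double knockout against single knockout uteri, 24 were higher and 8 lower, with a median of 0.07, beside 56.1% higher and a median of 0.03 over all genes. The arrays did not overlap for 12 that were higher (37.5%, beside 18.6% of all genes) and for 2 that were lower, *Kcnq1* and *Asb4* (14.2% of all genes). Without the array labelled single knockout replicate 3, 20 were lower in single knockout than in control uteri, with a median of -0.20. Over all genes, 54% were lower and the median was -0.02. Only 17 were then higher in double knockout than in single knockout uteri, with a median of 0.05, beside 55.2% and a median of 0.03 over all genes. The count of genes higher in double knockout uteri thus rests on that array. The arrays then did not overlap for 9 genes that were lower in single knockout than in control uteri (18.5% of all genes) and for 13 that were higher in double knockout than in single knockout uteri (23.1% of all genes). These comparisons share the single knockout arrays, so their opposite signs are not independent of each other. In double knockout against control uteri, 16 were higher and 16 lower, with a median of 0.00, beside 52.7% higher over all genes. The arrays did not overlap for *Igf2r* alone, which was lower in double knockout uteri (5.32% of all genes), and for no gene that was higher (6.52% of all genes).

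**Figure D1:**
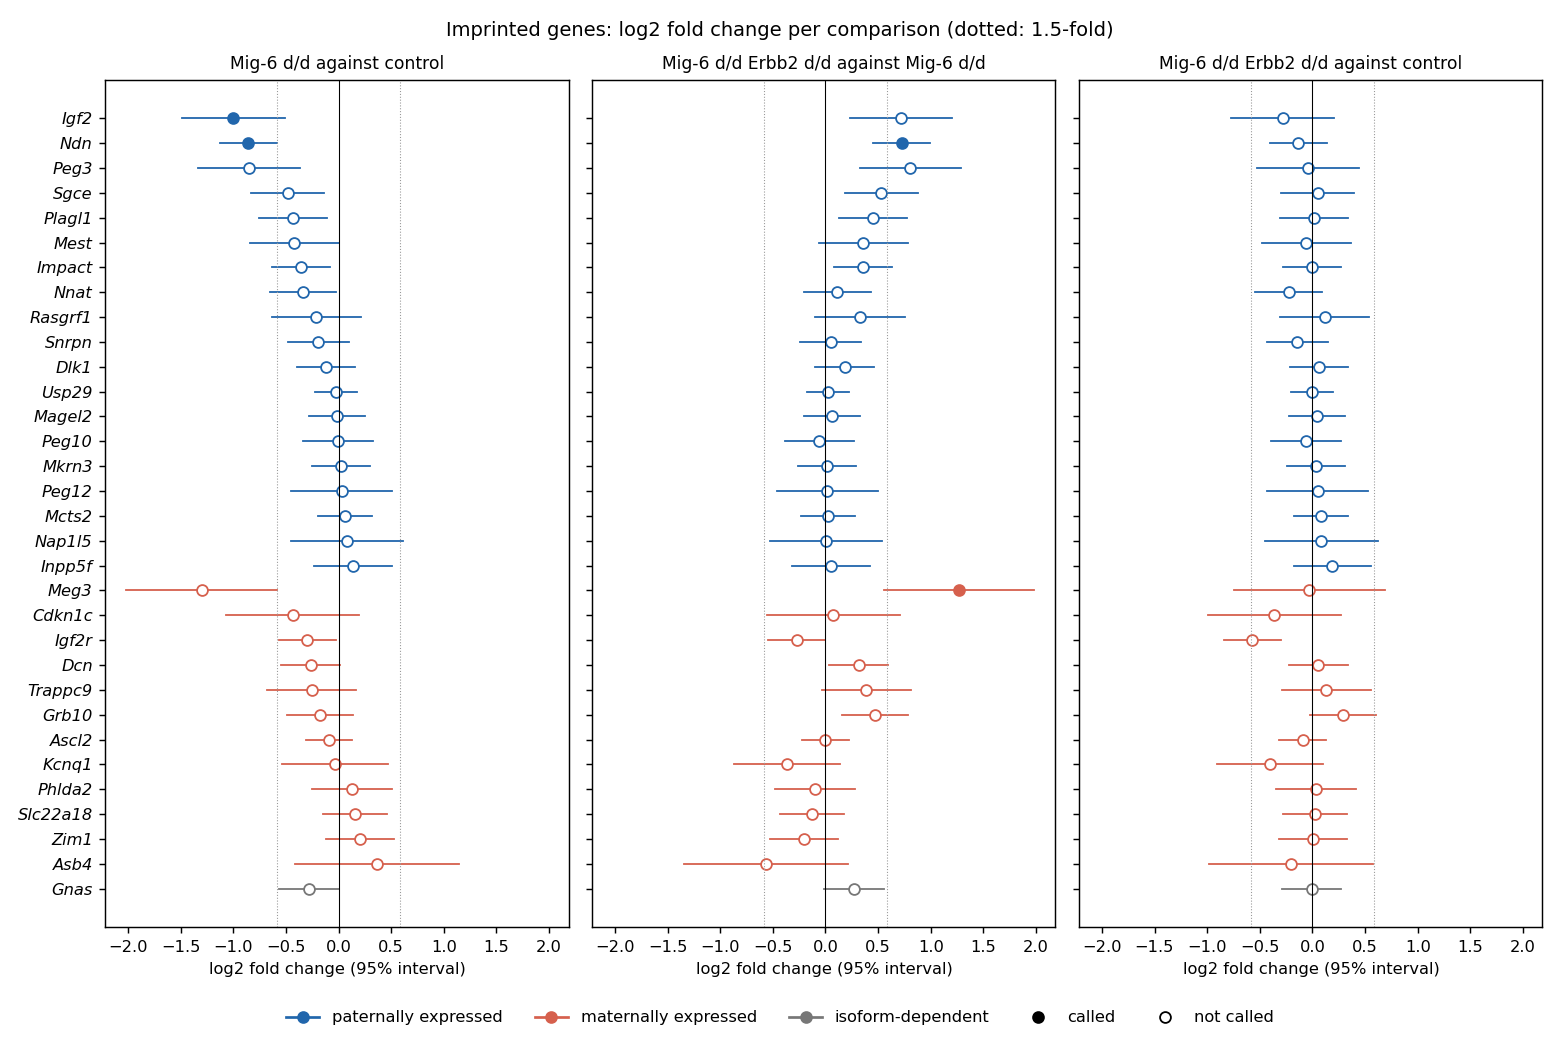
Log2 fold change of each of the 32 measured imprinted genes in the 3 comparisons (x axis) with its 95% interval. Genes are ordered by parental expression and by their change in single knockout uteri, filled points were called, and dotted lines mark 1.5-fold. In the single knockout 23 genes lie below 0 relative to control, in the double knockout 24 lie above 0 relative to the single knockout, and against control the double knockout is split 16 to 16 with no filled point.

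The paternally and maternally expressed genes were each read separately. Of the 19 paternally expressed genes, 14 were lower in single knockout than in control uteri, and 18 were higher in double knockout than in single knockout uteri, the exception being the dim *Peg10*. Without the array labelled single knockout replicate 3 these counts were 12 and 12. Of the 12 maternally expressed genes, 8 were lower in single knockout than in control uteri, and 5 were higher in double knockout than in single knockout uteri. Without that array these were 7 and 4. Over all genes, 55.2% were lower in the first comparison and 56.1% higher in the second, and without that array 54% and 55.2%. The difference between the parental classes was not tested. The genes were also read by their signal. Of the 32, 20 lay above the median of all values (8.07) on all 9 arrays, 4 lay above it on some arrays and 8 on none. Among the 20, 16 were lower in single knockout than in control uteri and 16 were higher in double knockout than in single knockout uteri, with medians of -0.29 and 0.34. Among the other 12, 7 were lower in single knockout than in control uteri and 8 were higher in double knockout than in single knockout uteri. The difference between brighter and dimmer genes was not tested. The same counts were not computed for equally bright genes outside the list. Nor were they computed without the array labelled single knockout replicate 3, so nothing particular to imprinted genes was read from them.

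*Ndn* encodes necdin, a MAGE-family protein that restrains cell proliferation and belongs to the imprinted cluster homologous to the human Prader-Willi region. Its intensities were 361, 289 and 336 in double knockout uteri, 204, 219 and 174 in single knockout uteri, and 338, 384 and 356 in control uteri. The 3 single knockout arrays were the lowest of the 9, and the other genotypes overlapped. The log2 fold change was -0.86 ± 0.12 (SE) in single knockout against control uteri (limma adjusted p = 0.0104) and 0.72 ± 0.12 in double knockout against single knockout uteri (adjusted p = 0.00913). Against control, double knockout uteri differed by -0.13 (95% interval -0.40 to 0.14; adjusted p = 0.885). Both calls held when any 1 of the 9 arrays was left out, and without the array labelled single knockout replicate 3 they were -0.76 (limma adjusted p = 0.0412) and 0.63 (adjusted p = 0.0335).

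The 5 probe sets of *Ndn* above the median differed in their calls. A second probe set gave a log2 fold change of -0.996 in single knockout against control uteri (limma adjusted p = 0.00761) and 0.81 in double knockout against single knockout uteri. The suffix of this probe set and of the chosen one marks probes that can match other transcripts. Another probe set was called only in the comparison of double knockout with single knockout uteri (0.65, limma adjusted p = 0.0337), and had -0.45 in single knockout against control uteri. The remaining pair had -0.20 and -0.21 in single knockout against control uteri (limma adjusted p = 0.817 and 0.774), with arrays that overlapped. On the first of this pair, control uteri spread from 146 to 384, beside 187 to 209 in single knockout uteri. All 5 had the same sign, but the *Ndn* decrease therefore rests on 2 of the 5 probe sets, and with probe sets of shared sequence left out it was not called.

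Among the 34 listed genes, the neighbours of *Ndn* in its cluster gave little signal. *Magel2*, another MAGE gene, *Mkrn3*, a ubiquitin ligase, and *Peg12* lay at or under the median of all values on all 9 arrays, between 3.61 and 6.64, and *Snrpn*, which encodes a splicing protein, between 8.63 and 12.5. Their log2 fold changes in single knockout against control uteri were -0.02, 0.02, 0.03 and -0.19, none called. No change was detectable for them at this signal.

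**Figure D2:**
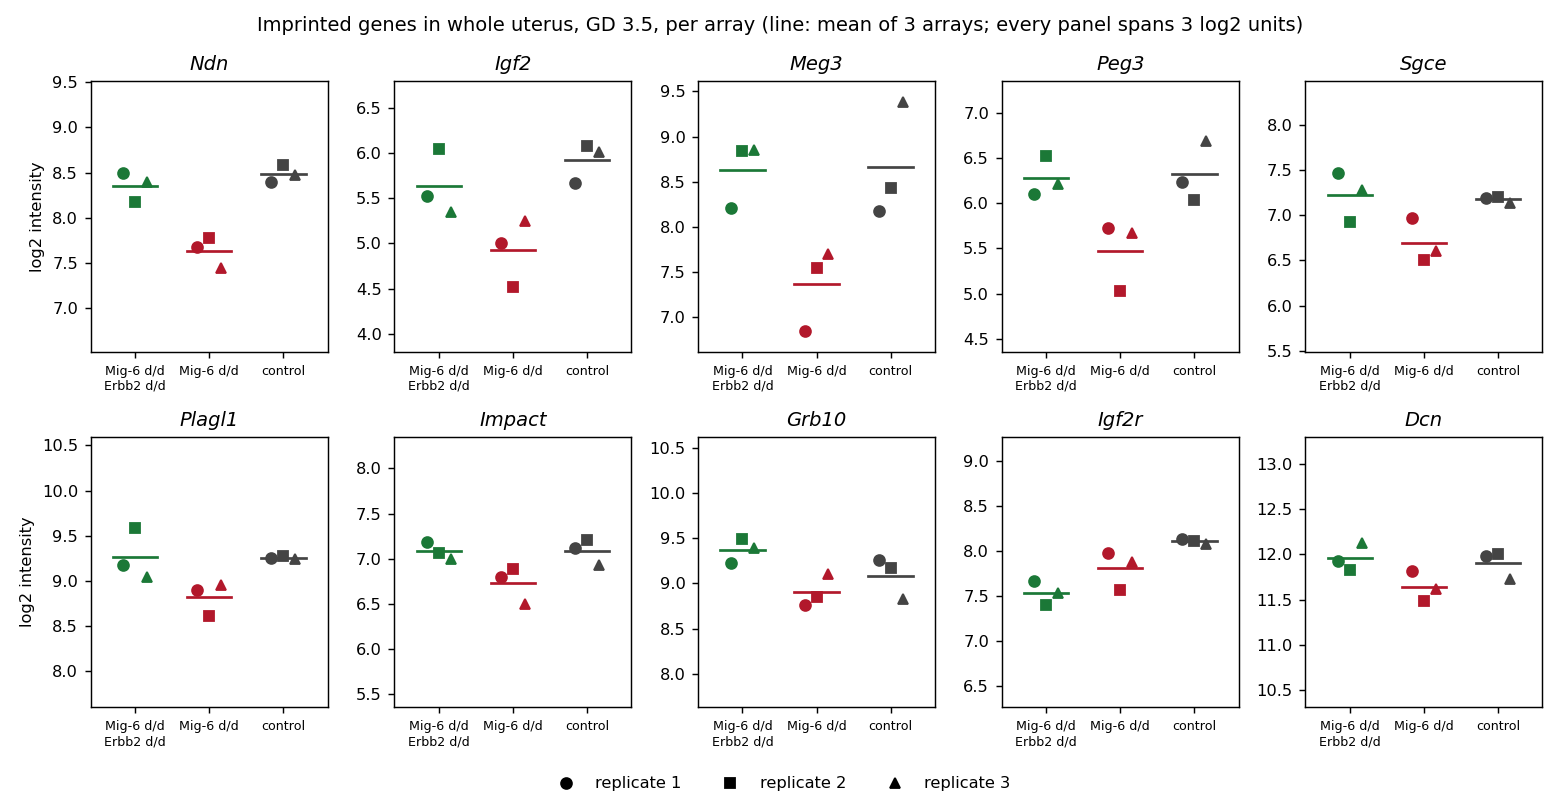
Log2 intensity (y axis, every panel spanning 3 units) on each array for the 10 imprinted genes that were called or had the smallest p-values, by genotype (x axis), with lines at the mean of 3 arrays. In *Ndn*, *Igf2*, *Meg3*, *Peg3*, *Sgce*, *Plagl1*, *Impact* and *Igf2r*, the 3 single knockout arrays lie below the 3 control arrays, and in *Igf2r* the double knockout mean lies lowest.

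*Igf2*, the fetal growth factor that signals through the IGF1 receptor, had intensities of 46.0, 66.1 and 40.7 in double knockout uteri, 32.0, 22.9 and 38.1 in single knockout uteri, and 51.1, 67.8 and 64.4 in control uteri. Again the 3 single knockout arrays were the lowest of the 9. *Igf2* fell by 1.0 ± 0.22 (SE) on the log2 scale in single knockout against control uteri (limma adjusted p = 0.0392). In double knockout against single knockout uteri the value was 0.72 ± 0.22 (adjusted p = 0.0844), which was not called, and against control uteri it was -0.28 (95% interval -0.77 to 0.21). The decrease was called in 3 of the 9 fits that left out 1 array. Without control replicate 2 or 3, without any 1 single knockout array, or without double knockout replicate 1, it was lost, and without the array labelled single knockout replicate 3 the value was -1.16 (limma adjusted p = 0.0544).

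*Igf2r* encodes the receptor that clears IGF2 from the cell surface and carries lysosomal enzymes. Its intensities were 203, 169 and 186 in double knockout uteri, 253, 190 and 235 in single knockout uteri, and 281, 276 and 269 in control uteri. The 3 control arrays were the highest and hardly differed from each other. The log2 fold change was -0.57 ± 0.12 (SE) in double knockout against control uteri (95% interval -0.84 to -0.30; limma adjusted p = 0.125), -0.30 in single knockout against control uteri and -0.27 in double knockout against single knockout uteri, none called. The second probe set of *Igf2r* had 0.03 in double knockout against control uteri and 0.34 in double knockout against single knockout uteri, so the probe sets disagree in direction.

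Beside *Igf2* and *Igf2r*, a list of 20 genes of the IGF axis was read, of which 19 were measured. It held *Igf1*, receptors and their adaptors, IGF-binding proteins, *Igf2* mRNA-binding proteins, proteases and protease inhibitors. In single knockout against control uteri, 1 of the 19 rose and 2 fell, with a median of -0.27. Among all genes, 2.55% rose and 1.81% fell, with a median of -0.03. *Igfbp3*, which binds IGFs in the circulation, had intensities of 209, 162 and 205 in single knockout uteri and 356, 319 and 400 in control uteri (log2 fold change -0.90, limma adjusted p = 0.0235). *Igfbp6*, a binding protein that prefers IGF2, had 451, 444 and 362 in single knockout uteri and 682, 805 and 546 in control uteri (-0.68, limma adjusted p = 0.0435). *Stc2*, a secreted glycoprotein that inhibits the protease PAPP-A, rose by 1.46 on the log2 scale (limma adjusted p = 0.0328). In double knockout against single knockout uteri, 2 of the 19 rose and 1 fell, with a median of 0.25, beside 3.73% and 3.76% of all genes and a median of 0.03. *Igfbp6* rose by 1.07, *Stc1* rose by 0.70 and *Stc2* fell by 1.60 on the log2 scale. *Igfbp3* did not pass there, at 0.10, with 236, 226 and 158 in double knockout uteri. Without the array labelled single knockout replicate 3, *Igfbp6* in double knockout against single knockout uteri was the only one of these calls that held (0.97, limma adjusted p = 0.0215).

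*Meg3* is a long noncoding RNA made from the maternal copy of the cluster that also holds *Dlk1* and *Rtl1*. Its intensities were 295, 457 and 462 in double knockout uteri, 116, 186 and 208 in single knockout uteri, and 289, 344 and 666 in control uteri. The single knockout arrays were the lowest of the 9, and control replicate 3 was far above the other controls. *Meg3* rose by 1.27 ± 0.32 (SE) on the log2 scale in double knockout against single knockout uteri (limma adjusted p = 0.0439). In single knockout against control uteri, the value was -1.30 ± 0.32 (adjusted p = 0.0577), the largest decrease among the 32 genes but not called. Against control, double knockout uteri differed by -0.03 (95% interval -0.75 to 0.69). The increase was called in 3 of the 9 fits that left out 1 array, those without a control array; without the array labelled single knockout replicate 3 it was 1.44 (limma adjusted p = 0.066).

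Of 11 probe sets of *Meg3*, 6 lay above the median on all arrays, and all 6 were lower in single knockout than in control uteri and higher in double knockout than in single knockout uteri. Of these, 5 were called in double knockout against single knockout uteri, at 1.18 to 1.44. In single knockout against control uteri, 2 were called. The dimmer of them had 13.5, 14.8 and 11.5 in single knockout uteri and 35.2, 29.95 and 35.2 in control uteri (-1.34, limma adjusted p = 0.00456), and the brighter had 69.6, 98.6 and 93.4 in single knockout uteri and 167, 200 and 294 in control uteri (-1.31, limma adjusted p = 0.0134). The chosen probe set, the brightest, was thus not the one with the least spread. *Rian*, another maternal noncoding RNA of the cluster, had 145, 164 and 198 in double knockout uteri, 79.85, 97.4 and 76.3 in single knockout uteri, and 168, 96.0 and 103 in control uteri. It rose by 1.00 on the log2 scale in double knockout against single knockout uteri (limma adjusted p = 0.0207) and was -0.50 in single knockout against control uteri (adjusted p = 0.238). *Dlk1*, the paternally expressed transmembrane inhibitor of adipocyte differentiation, was dim, between 6.56 and 9.37 on the 9 arrays.

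**Figure D3:**
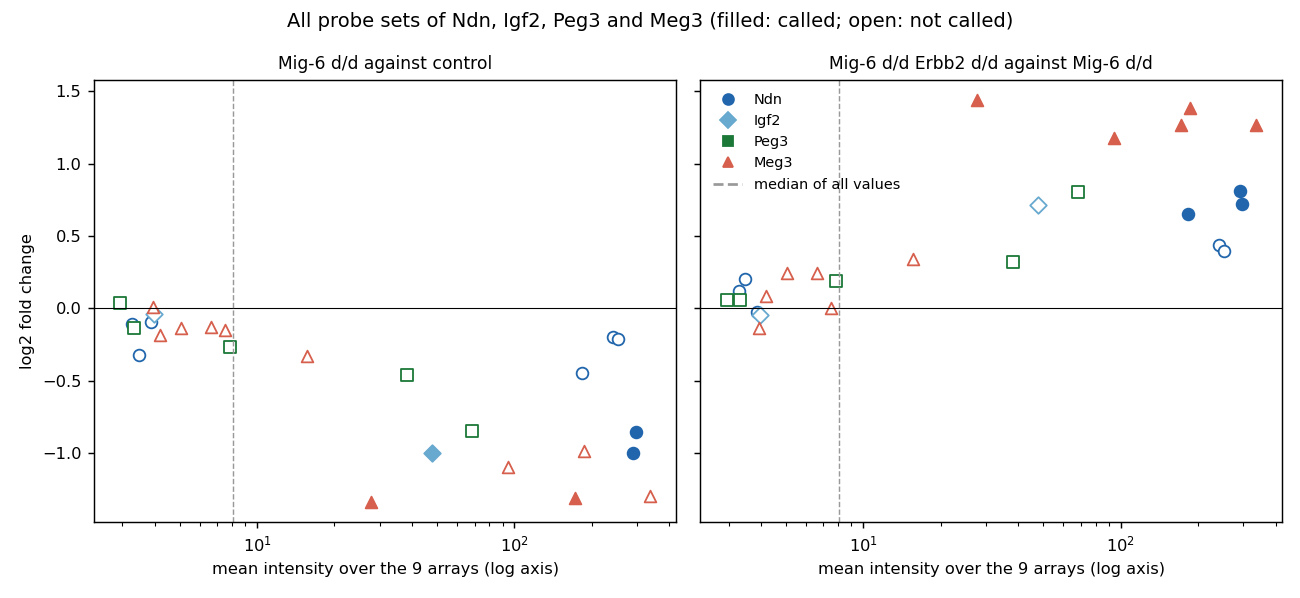
Log2 fold change (y axis) of every probe set of *Ndn*, *Igf2*, *Peg3* and *Meg3* against its mean intensity over the 9 arrays (log x axis) in single knockout against control and in double knockout against single knockout uteri, with the called ones filled. Probe sets left of the dashed line, the median of all values, scatter near 0, while the 6 bright ones of *Meg3* and 5 of *Ndn* are all below 0 on the left and above 0 on the right.

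*Peg3*, a paternally expressed zinc-finger gene linked to maternal behaviour and growth in mice, had intensities of 68.6, 92.1 and 74.0 in double knockout uteri, 52.9, 32.5 and 50.9 in single knockout uteri, and 75.3, 65.7 and 103 in control uteri. The single knockout arrays were the lowest of the 9. The log2 fold changes were -0.85 ± 0.22 (SE) in single knockout against control uteri (limma adjusted p = 0.0641) and 0.81 ± 0.22 in double knockout against single knockout uteri (adjusted p = 0.0548), neither called, and -0.04 in double knockout against control uteri (95% interval -0.52 to 0.44). A second bright probe set had -0.46 and 0.32 in the first pair of comparisons. Without the array labelled single knockout replicate 3, the values of the chosen probe set were -0.95 and 0.91, again not called. *Usp29* and *Zim1*, which lie beside *Peg3*, stayed at or under the median on all arrays, between 3.75 and 5.82.

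*Sgce*, epsilon-sarcoglycan of the membrane complex that ties muscle cells to the matrix, had 177, 122 and 156 in double knockout uteri, 126, 91.1 and 97.1 in single knockout uteri, and 146.5, 147 and 141 in control uteri. Its log2 fold changes were -0.48 in single knockout against control uteri (limma adjusted p = 0.126) and 0.53 in double knockout against single knockout uteri (adjusted p = 0.0735). *Asb4*, a maternally expressed ubiquitin ligase component of the same cluster that is linked to vessel development, ran the other way. It had 22.2, 19.3 and 21.1 in double knockout uteri, 35.0, 30.0 and 27.7 in single knockout uteri, and 21.5, 13.45 and 47.4 in control uteri, with log2 fold changes of 0.36 in single knockout against control uteri and -0.56 in double knockout against single knockout uteri, not called. Control replicate 3 was the highest of the 9, and without it *Asb4* was called higher in single knockout than in control uteri. *Peg10*, the third gene of the cluster here, lay between 2.91 and 4.17.

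*Plagl1*, the zinc-finger factor named above, had 580, 767 and 528 in double knockout uteri, 477, 391 and 494 in single knockout uteri, and 612, 618 and 604 in control uteri. Its log2 fold changes were -0.44 ± 0.15 (SE) in single knockout against control uteri (limma adjusted p = 0.137) and 0.45 ± 0.15 in double knockout against single knockout uteri (adjusted p = 0.101). *Impact*, an inhibitor of the amino acid sensor GCN2, had 146, 133 and 128 in double knockout uteri, 111, 118 and 90.6 in single knockout uteri, and 139, 148 and 122 in control uteri, with -0.36 and 0.35 in the same comparisons. For both genes the single knockout arrays were the lowest of the 9 and no call was made. With the array labelled single knockout replicate 3 left out, *Impact* had -0.24 and 0.24, and *Plagl1* had -0.50 and 0.51.

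*Grb10*, an adaptor that dampens insulin and IGF1 receptor signalling, had 601, 722 and 675 in double knockout uteri, 433, 463 and 550 in single knockout uteri, and 612, 575 and 454 in control uteri. The log2 fold change was 0.47 in double knockout against single knockout uteri (limma adjusted p = 0.0766) and -0.18 in single knockout against control uteri, where the arrays overlapped. *Dcn*, which encodes the collagen-binding proteoglycan decorin and whose imprinting is known from the mouse placenta, had 3894, 3632 and 4456 in double knockout uteri, 3606, 2875 and 3138 in single knockout uteri, and 4035, 4108 and 3391 in control uteri. Its values of 0.32 in double knockout against single knockout uteri and -0.26 in single knockout against control uteri were not called. A second, much dimmer probe set of *Dcn* had 0.91 (limma adjusted p = 0.0825) and -1.01 (adjusted p = 0.0788) in these comparisons, also not called, and when the probe sets were averaged *Dcn* was called in both, at 0.62 (limma adjusted p = 0.0276) and -0.64 (adjusted p = 0.0338).

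Among the other members, *Mest*, a paternally expressed gene of the hydrolase fold family, had -0.42 in single knockout against control uteri and 0.36 in double knockout against single knockout uteri. *Trappc9*, a vesicle trafficking gene, had -0.26 and 0.39. *Gnas*, the stimulatory G protein gene, had -0.28 and 0.27 at its brightest probe set. Its other 2 probe sets above the median on all arrays had -0.35 and -0.10 in single knockout against control uteri but ran the other way in double knockout against single knockout uteri, at -0.37 and -0.21. None of the 3 was called, and their direction there is unsettled. *Cdkn1c*, the cyclin-dependent kinase inhibitor p57, had 87.2, 53.1 and 60.5 in double knockout uteri, 56.45, 94.2 and 45.3 in single knockout uteri, and 105, 88.2 and 63.8 in control uteri, with all genotypes overlapping. *Kcnq1*, a potassium channel of the same cluster, had 20.3, 22.6 and 20.85 in double knockout uteri and 27.7, 29.3 and 25.3 in single knockout uteri (-0.37, limma adjusted p = 0.428). *Inpp5f*, *Mcts2* and *Slc22a18* had log2 fold changes of 0.06 to 0.16 in single knockout against control uteri, none called. *Phlda2* and *Ascl2*, which act in the placenta, lay at or under the median of all values on all arrays, and *Nnat*, *Rasgrf1* and *Nap1l5* lay above it on only some of them.

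The similarity of double knockout to control uteri was limited by the width of the intervals. At an unadjusted p under 0.05, 1 of the 32 genes, *Igf2r*, differed between them, and with the 1.5-fold limit 0 did. The share of all genes at that p was not computed. The log2 fold changes ranged from -0.57 to 0.29. The interval of *Meg3* still allowed differences of more than 1.5-fold in both directions, so missing the threshold does not show that the genotypes were alike.

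Of 50 further genes reported as imprinted in at least some mouse tissues, 40 were measured. None was called in single knockout against control uteri, where their median was 0.00, and 8 had an unadjusted p under 0.05. The share of all genes at that p was not computed, so nothing was read from the 8. In double knockout against single knockout uteri, 3 rose and 3 fell, with a median of 0.02. Among all genes, 2.55% rose and 1.81% fell in the former comparison. In the latter, 3.73% rose and 3.76% fell, with a median of 0.03. Besides *Rian*, *Atp10a*, a phospholipid flippase, rose by 1.10 on the log2 scale (limma adjusted p = 0.00862), with 53.9, 54.5 and 41.3 in double knockout uteri and 22.6, 22.2 and 24.85 in single knockout uteri, and *Osbpl5*, a lipid transfer protein, rose by 0.70. *Dlx5*, a homeobox gene, fell by 1.57, with 36.8, 46.5 and 59.7 in double knockout uteri and 176, 98.65 and 153 in single knockout uteri (limma adjusted p = 0.0247). *Pon3*, a lactonase, fell by 1.21 and *Dhcr7*, the last enzyme of cholesterol synthesis, by 0.63. Only *Atp10a* (1.15, limma adjusted p = 0.0253) and *Pon3* (-1.13, adjusted p = 0.0463) were called without the array labelled single knockout replicate 3, and *Rian* was not (0.93, adjusted p = 0.0723). *Osbpl5* and *Dhcr7* were named after their values were seen.

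Genes that keep imprints and DNA methylation were read from a list of 31, of which 29 were measured. In single knockout against control uteri 2 rose, and in double knockout against single knockout uteri the same 2 fell. Among all genes, 2.55% rose in the first comparison and 3.76% fell in the second. *Hells*, a chromatin remodeller needed for DNA methylation, had 53.3, 77.0 and 61.8 in double knockout uteri, 184, 191 and 193 in single knockout uteri, and 97.8, 49.0 and 60.6 in control uteri. Its log2 fold changes were 1.52 in single knockout against control uteri (limma adjusted p = 0.0115) and -1.58 in double knockout against single knockout uteri (adjusted p = 0.00476). *Uhrf1*, which brings DNMT1 to replicated DNA, rose by 1.03 in the first comparison and fell by 0.93 in the second. *Hells* held both calls without the array labelled single knockout replicate 3 (limma adjusted p = 0.0427 and 0.0199), and *Uhrf1* held neither (adjusted p = 0.0638 and 0.0537). Both genes are also switched on in dividing cells. The median of the list was -0.01 in single knockout against control uteri, beside -0.03 over all genes.

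Markers of uterine cell types moved with the genotypes as well. In single knockout against control uteri, 4 of 17 stromal markers, 1 of 12 smooth muscle markers and 5 of 14 endothelial markers fell and none of them rose, with medians of -0.62, -0.64 and -0.73. Over the same comparison 11 of 19 epithelial markers rose, with a median of 1.38. Among all genes, 2.55% rose and 1.81% fell, with a median of -0.03. In double knockout against single knockout uteri, 7 stromal, 6 smooth muscle and 6 endothelial markers rose (medians 0.70, 0.92 and 0.59) and 13 epithelial markers fell (median -1.48). The shares of all genes there were 3.73% and 3.76%, with a median of 0.03. Without the array labelled single knockout replicate 3, the medians in single knockout against control uteri were -0.57, -0.75 and -0.77 for stromal, smooth muscle and endothelial markers and 1.25 for epithelial markers, with 1, 1 and 4 called lower and 3 called higher. The medians in double knockout against single knockout uteri were then 0.62, 1.03, 0.68 and -1.31, with 6, 4 and 5 called higher and 10 called lower. Of all genes, 0.671% were then called lower and 0.797% higher in single knockout than in control uteri. In double knockout against single knockout uteri, 2.49% were called higher and 2.17% lower. The summed intensities of the stromal markers were 27970 to 29187 in double knockout uteri, 20229 to 23812 in single knockout uteri and 24968 to 28937 in control uteri, whereas those of the smooth muscle markers were 20308 to 24746 in double knockout uteri, 11121 to 15885 in single knockout uteri and 17235 to 22346 in control uteri. Those of the epithelium were 3215 to 4673 in double knockout uteri, 9042 to 13688 in single knockout uteri and 3575 to 6275 in control uteri, and those of the endothelium were 1922 to 2510 in double knockout uteri, 1699 to 2334 in single knockout uteri and 2391 to 2777 in control uteri. All markers of these 4 types lay above the median on at least 1 array. The part of cell composition in the imprinted genes' values was not tested. Of 11 markers of the preimplantation embryo and trophoblast, 8 lay above the median on no array, and of 10 markers of neurons and glia 7 did so.

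**Figure D4:**
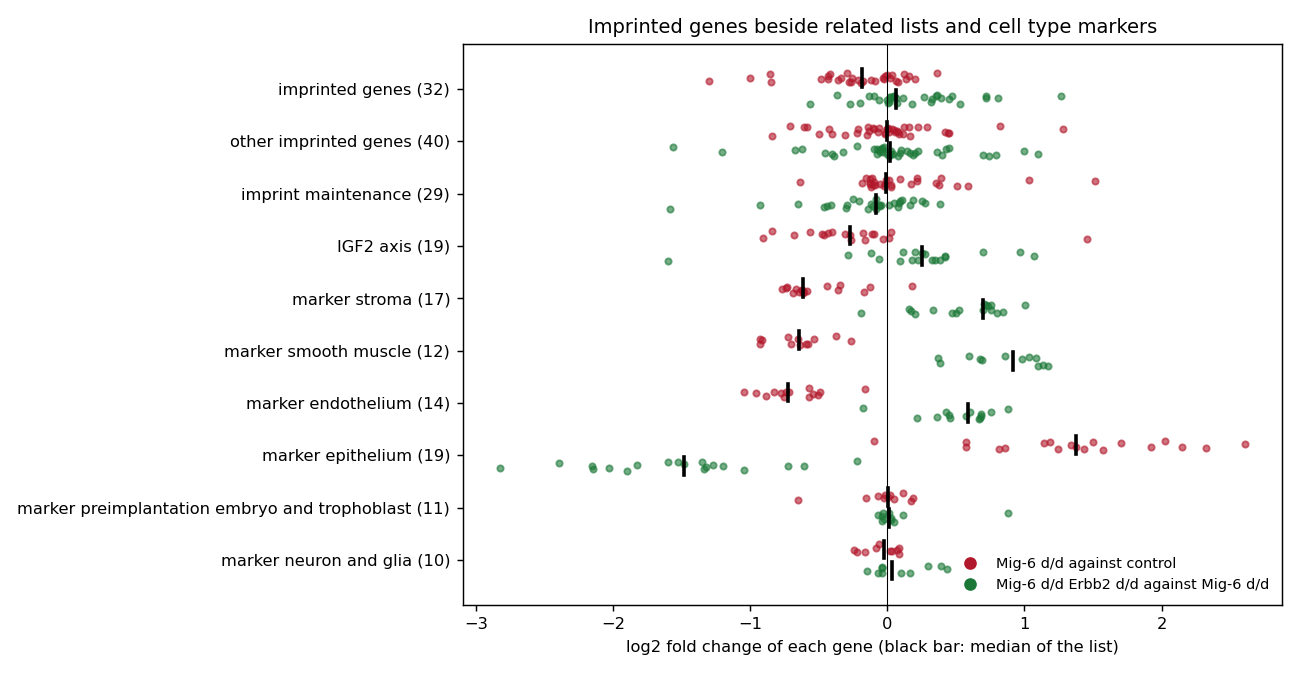
Log2 fold change of each measured gene (x axis) in single knockout against control (red) and double knockout against single knockout uteri (green), by gene list with the number measured, and black bars at the list medians. The medians of the imprinted genes (-0.19 and 0.07) lie closer to 0 than those of the stromal (-0.62 and 0.70), smooth muscle (-0.64 and 0.92) and endothelial markers (-0.73 and 0.59). The imprinted list includes dim genes, and its 20 genes above the median of all values on every array had medians of -0.29 and 0.34.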

How the data were processed

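Total RNA of whole uteri at GD 3.5, pooled per genotype, had been hybridized to Affymetrix mouse genome arrays, and the 9 arrays formed 3 groups of 3. The authors deposited 1 intensity per probe set and array on a linear scale (2.11 to 11548.76, median 8.07), made by robust multi-array averaging (RMA, version not given in the sources used here) with quantile normalization in Bioconductor. Log2 values were computed here from the deposited intensities. No scanner files or detection calls were used here. Dim genes were therefore judged only against the median of all values, and precision is limited by the 3 arrays per group.

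Probe sets were named from the platform annotation: 34945 had 1 symbol, 932 had several and 9160 were unnamed here. Of the named, 34741 were found in a RefSeq gene table, which changed 0 symbols. Each gene was read at the probe set of its own with the highest mean. The imprinted genes and all lists were chosen with earlier results of these data known.

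Differences were tested with limma 3.58.1 (lmFit and eBayes, R 4.3.3), with the 3 groups in 1 model and 3 contrasts over 45037 probe sets. Calls needed a Benjamini-Hochberg adjusted p under 0.05 and more than 1.5-fold. Intervals are 95% and cover single probe sets. Values on every array are given for called imprinted genes and, up to 10, for those with the smallest p; from each other list, up to 2 called genes per direction are named, with *Osbpl5* and *Dhcr7* added after their values were seen. Tables and figures were made with Python 3.11.15 and matplotlib 3.10.9. On simulated data for single knockout against control with 200 of 45037 probe sets changed, 18% of the 1.5-fold, 68% of the 2-fold, 88% of the 3-fold and 96% of the 4-fold changes were recovered, 50 of each, with 5 false calls. Alternatives covered scaling, filters, probe set choice, the test, the thresholds, the replicate number as a block and leaving out each array.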

Additional observations from a re-analysis of the deposited data

How the results depend on the processing

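The 10 named imprinted genes were recomputed in 3 comparisons under up to 25 alternatives each. Of 747 values, 654 kept their direction and side of the threshold, 25 lost a call, 46 gained one and 22 changed sign, all of the last uncalled. Imprinted genes called lower in single knockout than in control uteri numbered 4 instead of 2 (*Igf2*, *Meg3*, *Ndn* and *Peg3*) with dim probe sets left out, with 1 probe set per gene, at an adjusted p under 0.1, and in the methods' t-test, which became 0 after adjustment. They numbered 1 (*Ndn*) with only the 6 arrays compared, 1 to 3 when 1 array was left out, and, in alternatives chosen after seeing the data, 4 at an unadjusted p under 0.05, or 9 if the fold limit was dropped at the same time. At the adjusted p, leaving out the fold limit alone changed none of these counts. Those called higher numbered 0 to 1 when 1 array was left out (*Asb4*, without control replicate 3). Imprinted genes called higher in double knockout than in single knockout uteri (2) numbered 4 (the same 4 genes) at an adjusted p under 0.1 and at an unadjusted p under 0.05, 9 at an unadjusted p under 0.05 without the fold limit, 1 (*Meg3*) with probe sets of shared sequence left out, 0 in the adjusted t-test and 1 to 3 when 1 array was left out. At an unadjusted p under 0.05 without the fold limit, *Igf2r* made 1 lower call there and 1 in double knockout against control uteri. The share of all genes at that p without the fold limit was not computed, so these counts have no background beside them. With dim ones left out, 610 of 23344 probe sets were called lower in single knockout than in control uteri. With 1 probe set per gene, 408 of 18193 genes were. Of 45037 probe sets, 802 were at an adjusted p under 0.1, 768 in the t-test and 1094 at an unadjusted p under 0.05. In double knockout against single knockout uteri, 1392 and 1652 were called higher at the last-named adjusted and unadjusted limits. Without double knockout replicate 1 or 3, or without any 1 of the single knockout arrays, *Ndn* alone was called higher in double knockout than in single knockout uteri. Where a cause is not plain from fewer arrays or probe sets, the cause was not tested.

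Deviations of arrays of the same number had correlations of -0.13 to 0.20 over 9 pairs. This range lay within that of arrays of different number (-0.30 to 0.33 over 18 pairs). With so few arrays per group, these correlations cannot decide whether the numbers pair the arrays. With the replicate number as a block, 2 imprinted genes were called lower in single knockout than in control uteri, *Ndn* (-0.86) and *Meg3* (-1.30, limma adjusted p = 0.00856) in place of *Igf2* (-1.0, adjusted p = 0.0577), and 2 higher in double knockout than in single knockout uteri, *Ndn* and *Meg3*.

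When a gene's probe sets were averaged, the log2 fold changes in double knockout against control uteri turned to 0.011 for *Ndn*, 0.035 for *Meg3*, 0.16 for *Impact* and -0.022 for *Dcn*, and that of *Igf2r* in double knockout against single knockout uteri to 0.035. With probe sets of shared sequence left out, *Ndn* had 0.24 in double knockout against control uteri and *Plagl1* 0.087 in single knockout against control uteri. *Impact*, at 0.00 in double knockout against control uteri, had 0.012 after a further quantile normalization, 0.0049 with arrays centred on their medians and 0.024 with array weights. Leaving out 1 array gave sign changes in double knockout against control uteri alone, where *Meg3* ranged from -0.27 to 0.33, *Peg3* from -0.18 to 0.14, *Sgce* from -0.071 to 0.20, *Plagl1* from -0.14 to 0.13, *Impact* from -0.080 to 0.059 and *Dcn* from -0.033 to 0.12.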
